A study of Diospyros kaki with 21 samples.

Results

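Flesh of 'Jingmianshi' persimmon (Diospyros kaki, an astringent cultivar) was compared between fruit that had just come out of a high-CO2 atmosphere and fruit kept in air. The CO2 1 d group was mature fruit enclosed in 95% CO2, gas-tight, over 1 d, and the CK 1 d group was fruit enclosed in the same way with air in place of CO2. Each group had 3 RNA-seq libraries (A, B and C), so that 6 of the 21 libraries of the series entered the comparison. The other libraries came from CO2+1-MCP fruit (95% CO2 with 1-MCP, which blocks ethylene perception) at 1 and 4 d, from CO2 and CK fruit at 4 d, after storage in air, and from fruit at 0 d. All groups were of the same cultivar and tissue. Reads had been assembled de novo into 261970 unigenes, assembled transcripts of which several can belong to 1 gene. Of these, 147691 carried a hit in the NR protein database, 105035 a Pfam domain and 56852 a KEGG orthology (KO) number, which names a function.

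Plant cells that run short of oxygen keep making ATP by glycolysis, and regain the NAD+ that it needs by turning pyruvate into acetaldehyde (pyruvate decarboxylase, PDC) and acetaldehyde into ethanol (alcohol dehydrogenase, ADH). In persimmon, acetaldehyde is known to make the soluble tannins of the flesh insoluble, which removes the astringent taste. In Arabidopsis, a group of ethylene response factors (ERFs) switches on the genes of this response, and plant cysteine oxidases mark these factors for breakdown as long as oxygen is present.

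The libraries held 14644843 to 17970406 counts in CO2 1 d and 18150327 to 22043935 in CK 1 d. Spearman correlations across unigenes were 0.854 to 0.899 within a group and 0.551 to 0.588 between the groups. One chitinase unigene (Cluster-16487.111793) took 3.3 to 3.48% of all counts in CO2 1 d and 18.92 to 21.38% in CK 1 d. FPKM values (fragments scaled to unigene length and library total) share the library total with it, so all log2 fold changes given here came from counts scaled by the trimmed mean of M values (TMM), as CO2 1 d over CK 1 d ± SE, with adjusted p from edgeR's quasi-likelihood test. Unigenes of fungal type, which have a cork oak hit in NR and a fungal hit in Swiss-Prot, summed to 1498.1 to 1957.9 CPM (counts as a rate of the library total) in CO2 1 d and 99.3 to 178.2 CPM in CK 1 d. Of 3205 such unigenes, 477 passed the filter on low counts, and 458 of these rose. Members this low in CK 1 d can pass that filter through CO2 1 d alone, so this share is no separate result. Unigenes with an NR hit outside plants summed to 375.0 to 541.8 CPM in CO2 1 d and 47.9 to 55.7 CPM in CK 1 d. The other unigenes with a cork oak hit in NR, whose origin was not settled, summed to 22801.7 to 26025.9 CPM in CO2 1 d and 11207.5 to 13740.0 CPM in CK 1 d. With all of these sets left out, 11949 unigenes were called higher and 11394 lower. Markers of other fruit tissues were present at low levels, with seed markers summing to 105.1 to 124.4 CPM in CO2 1 d and 92.8 to 103.2 CPM in CK 1 d, peel markers to 90.3 to 111.6 CPM in CO2 1 d and 78.4 to 98.5 CPM in CK 1 d, and vascular markers to 126.5 to 193.9 CPM in CO2 1 d and 168.0 to 211.3 CPM in CK 1 d. In whole flesh, fewer cells of a type and less RNA per cell cannot be told apart.

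Among 60190 unigenes tested, 12607 (20.9%) were higher and 11808 (19.6%) lower in CO2 1 d than in CK 1 d at an adjusted p below 0.05. With a fold change above 5 as well, the DEGs numbered 6513 up-regulated (10.8%) and 5533 down-regulated (9.19%) unigenes. The median log2 fold change over all tested unigenes was -0.05. Short unigenes leaned upward and long ones downward: the shortest 10% of unigenes (201 to 527 bases) had a median of 0.38, with 29.0% higher and 13.2% lower, and the longest 10% (3554 to 27518 bases) had a median of -0.55, with 10.3% higher and 23.3% lower. The mean unigene length weighted by counts was 1531 bases in CO2 1 d replicate A and 1687 to 1746 bases in the other 5 libraries. Without CO2 1 d replicate A, 12595 unigenes were called higher and 12060 lower. The part that transcript length and RNA quality play in the calls was not tested. Because an assembly splits genes, counts were also summed over all unigenes with the same KO number. Of 3284 KO sums tested, 1103 (33.6%) were higher and 975 (29.7%) lower in CO2 1 d, and the change was above 5-fold in 101 higher (3.08%) and 78 lower (2.38%). KO sums are given below in TMM-scaled CPM, which is not per length, so they compare libraries within a function and not functions with each other.

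**Figure D1:**
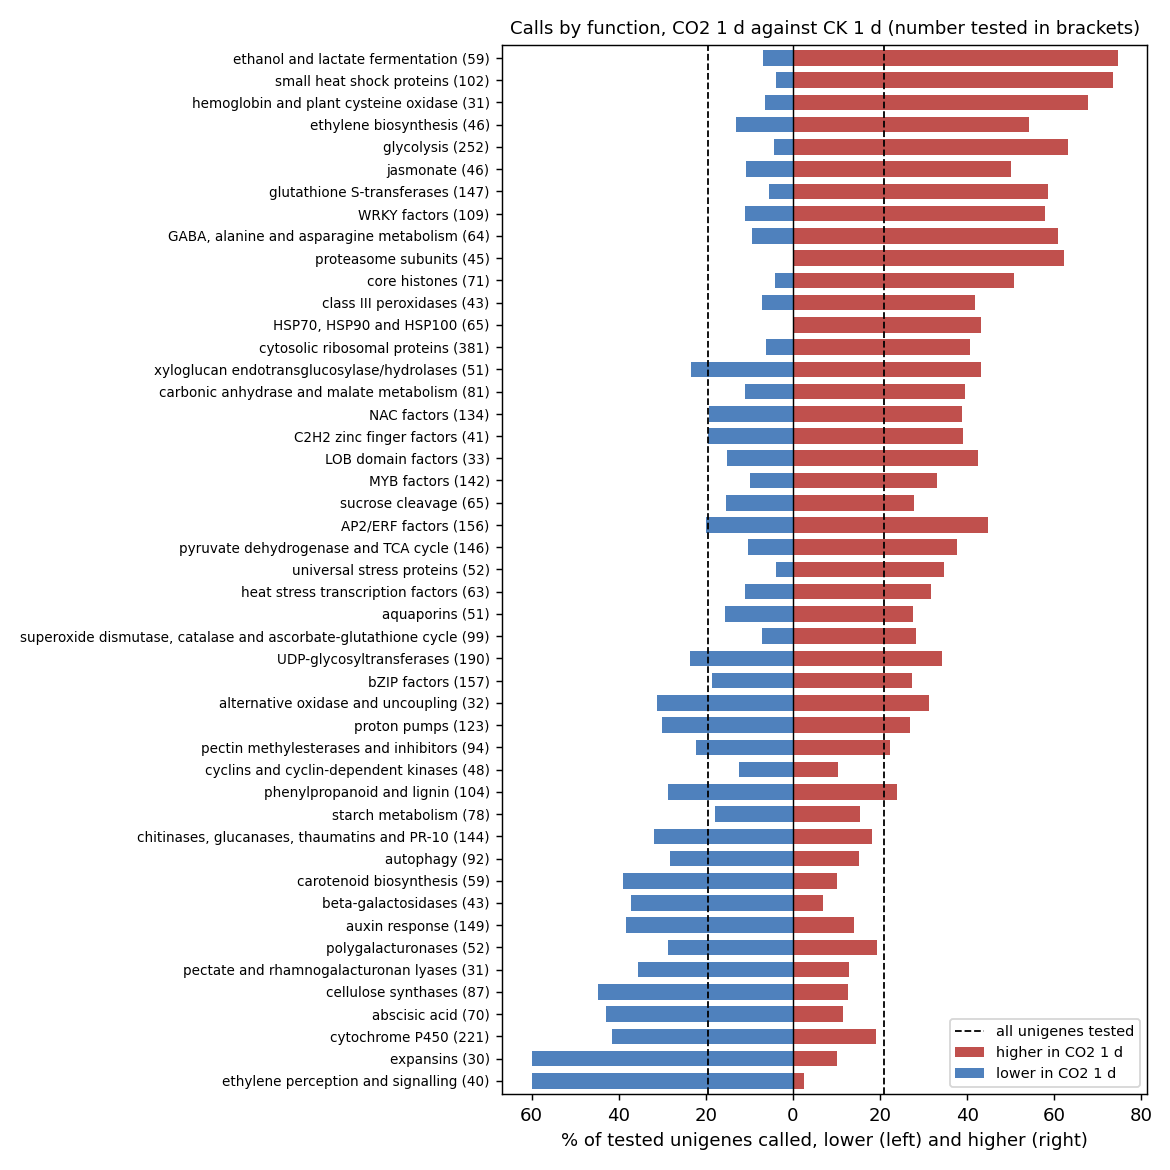
Percent of the tested unigenes of each functional list called higher (right, red) or lower (left, blue) in CO2 1 d than in CK 1 d, for lists with at least 30 tested unigenes, ordered by median log2 fold change; the dashed lines mark 20.9% higher and 19.6% lower over all tested unigenes. Fermentation and small heat shock proteins stand at the top, with 74.6% and 73.5% higher, and expansins and ethylene perception at the bottom, each with 60% lower.

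Fermentation had the highest median log2 fold change of the 53 functional lists. Of 59 tested unigenes of ethanol and lactate fermentation, 44 rose and 4 fell, with a median of 4.85. Summed PDC stood at 8920, 9970 and 9000 CPM in CO2 1 d, against 180, 240 and 189 CPM in CK 1 d (log2 fold change 5.52 ± 0.16, adjusted p = 4.84e-07). Summed class-P ADH, the enzyme that makes ethanol, stood at 2530, 2170 and 1930 CPM in CO2 1 d, against 104, 86.5 and 81.1 CPM in CK 1 d (4.61 ± 0.16, adjusted p = 9.2e-07). The groups did not overlap for either enzyme. Among unigenes whose database hit names a persimmon gene, the one hitting DkPDC2 (Cluster-16487.93179) had 2678, 3572 and 3126 FPKM in CO2 1 d, against 7.78, 11.6 and 9.22 FPKM in CK 1 d (8.30 ± 0.27, adjusted p = 5.1e-05). The unigene hitting DkADH1 (Cluster-16487.151869) had 1858, 1709 and 1505 FPKM in CO2 1 d, against 22.9, 18.9 and 17.1 FPKM in CK 1 d (6.39 ± 0.27, adjusted p = 6.62e-05). Both stood far above their air controls in every library. Of 19 unigenes hitting DkPDC2, 10 were tested and 10 rose, and of 30 hitting DkADH1, 18 were tested and 16 rose. Members low in CK 1 d can pass the filter on low counts through CO2 1 d alone, so these shares are no separate result. A further unigene with a persimmon ADH1 hit (Cluster-16487.151868) had 174, 165 and 140 FPKM in CO2 1 d and no count in CK 1 d. Taking 3 counts over the CK 1 d group as the limit, it was at least 3890-fold higher in CO2 1 d on library totals without TMM scaling. Reads may be split by the counting among the 30 unigenes with a DkADH1 hit.

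The other PDC genes rose by different amounts. The unigene hitting DkPDC1 had 444, 407 and 366 FPKM in CO2 1 d, against 12.5, 16.4 and 12.1 FPKM in CK 1 d (4.85 ± 0.25, adjusted p = 9.67e-05). That hitting DkPDC4 had 881, 1012 and 982 FPKM in CO2 1 d, against 20.5, 32.8 and 19.8 FPKM in CK 1 d (5.30 ± 0.24, adjusted p = 7.52e-05). DkPDC3 was the one already abundant in air, with 329, 411 and 427 FPKM in CO2 1 d, against 87.5, 99.6 and 94.1 FPKM in CK 1 d (1.99 ± 0.13, adjusted p = 0.000185). The unigene named for DkPDC5 was too low to be tested, and the 1 tested of the 4 unigenes hitting that gene was higher. Reads of such near-identical genes may be split between unigenes by the counting. The most abundant lactate dehydrogenase unigene (Cluster-16487.156132), which makes lactate from pyruvate, had 13.3, 13.9 and 15.1 FPKM in CO2 1 d and 22.2, 21.6 and 20.1 FPKM in CK 1 d (-0.65 ± 0.14, adjusted p = 0.0105). This small fall did not pass the test without CO2 1 d replicate B (-0.58, adjusted p = 0.057) or with no filter on low counts (-0.60, adjusted p = 0.098). It does not stand for the lactate side as a whole. PDC had 20 of 26 tested unigenes higher and 3 lower, and ADH 20 of 27 higher and 0 lower. Some of the 44 rises of the fermentation list therefore lay outside these enzymes.

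**Figure D2:**
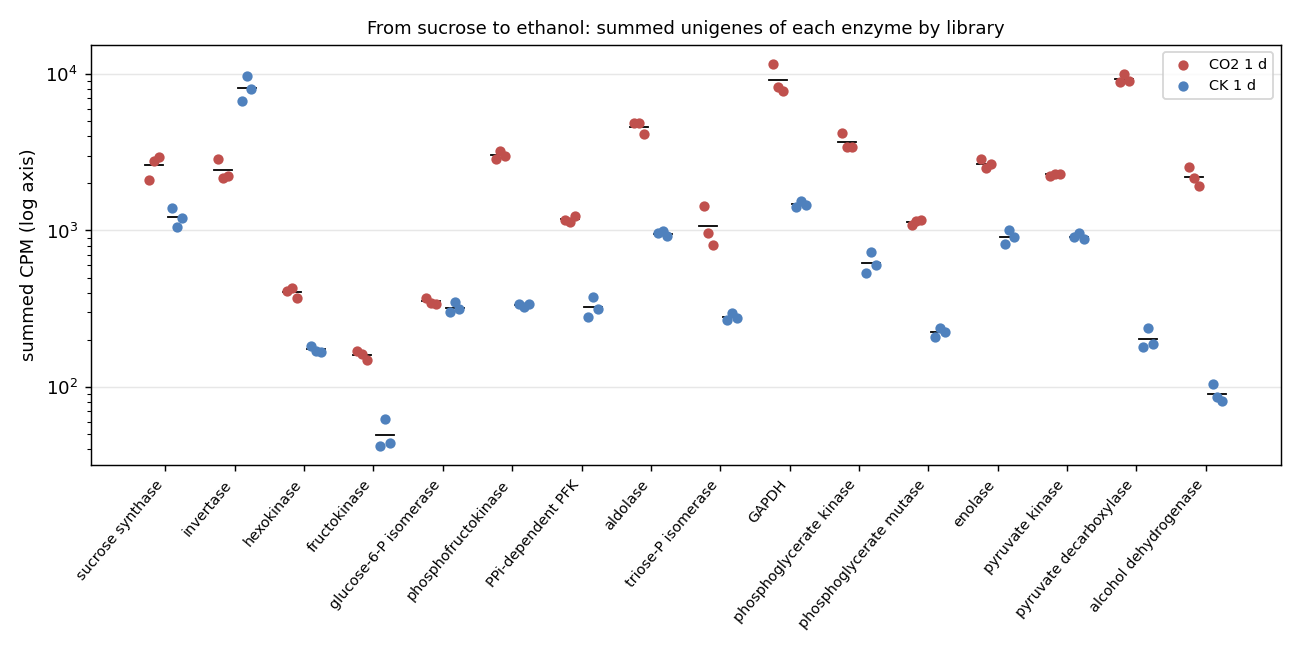
Summed CPM (log axis) of the enzymes from sucrose to ethanol in each library, with CO2 1 d in red left of CK 1 d in blue and the black bar at the group mean. All steps but invertase and glucose-6-phosphate isomerase stand higher in CO2 1 d, with the widest gap at pyruvate decarboxylase, where the CO2 1 d libraries hold 8920 to 9970 CPM and the CK 1 d libraries 180 to 240 CPM.

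Glycolysis rose along nearly its whole length: 159 of 252 tested unigenes were higher and 11 lower, with a median log2 fold change of 2.01. ATP-dependent phosphofructokinase, which commits hexose phosphate to glycolysis, had 2840, 3240 and 2980 CPM in CO2 1 d, against 338, 327 and 339 CPM in CK 1 d (3.17 ± 0.10, adjusted p = 8.32e-07). Its pyrophosphate-dependent counterpart, which spares ATP, had 1170, 1130 and 1230 CPM in CO2 1 d, against 282, 376 and 315 CPM in CK 1 d (1.86 ± 0.13, adjusted p = 2.09e-05). The 3 libraries of each group lay close together and far from the other group in both cases. Downstream, glyceraldehyde 3-phosphate dehydrogenase, the step that uses NAD+, had 11600, 8220 and 7740 CPM in CO2 1 d, against 1410, 1540 and 1460 CPM in CK 1 d (2.64 ± 0.17, adjusted p = 1.6e-05). Fold changes on the log2 scale were 2.27 for aldolase, 1.93 for triose-phosphate isomerase, 2.56 for phosphoglycerate kinase, 2.33 for phosphoglycerate mutase, 1.55 for enolase and 1.32 for pyruvate kinase, which makes pyruvate. Hexokinase (1.22) and fructokinase (1.69), which phosphorylate the free sugars, also rose. Glucose-6-phosphate isomerase was the step that did not pass the test, with 373, 346 and 340 CPM in CO2 1 d and 302, 348 and 315 CPM in CK 1 d (0.13 ± 0.10, adjusted p = 0.267), where the groups overlapped.

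The 2 routes that cleave sucrose moved apart. Sucrose synthase, which conserves energy as UDP-glucose, had 2100, 2790 and 2960 CPM in CO2 1 d, against 1390, 1050 and 1200 CPM in CK 1 d (1.11 ± 0.16, adjusted p = 0.000761). Acid invertase, which hydrolyses sucrose, had 2860, 2170 and 2240 CPM in CO2 1 d, against 6700, 9680 and 7970 CPM in CK 1 d (-1.75 ± 0.17, adjusted p = 0.000111). Without its most abundant unigene, the invertase value was -0.70. The whole list of sucrose-cleaving unigenes had 18 higher and 10 lower of 65 tested, shares near those of all unigenes. Among starch enzymes, alpha-amylase, which degrades starch, had 292, 329 and 317 CPM in CO2 1 d, against 1430, 1510 and 1530 CPM in CK 1 d (-2.25 ± 0.10, adjusted p = 3.24e-06). Granule-bound starch synthase, which makes amylose, went the other way, with 582, 424 and 486 CPM in CO2 1 d, against 45.7, 58.4 and 39.5 CPM in CK 1 d (3.38 ± 0.19, adjusted p = 9.49e-06). Other starch enzymes moved less: ADP-glucose pyrophosphorylase was at 0.97, the branching enzyme at -0.56, and beta-amylase, starch phosphorylase and soluble starch synthase did not pass the test. Without CO2 1 d replicate A, starch phosphorylase (0.40, adjusted p = 0.00576) and soluble starch synthase (-0.20, adjusted p = 0.0337) passed it. The ADP-glucose pyrophosphorylase value rested on 1 unigene and was -0.44 without it.

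Respiratory metabolism shifted less than fermentation. Of 146 tested unigenes of pyruvate dehydrogenase and the TCA cycle, 55 rose and 15 fell, with a median log2 fold change of 0.54. The KO sums that rose lay between 0.35 for citrate synthase and 1.13 for cytosolic malate dehydrogenase, with the pyruvate dehydrogenase alpha subunit at 1.00 and the iron-sulfur subunit of succinate dehydrogenase at 0.80. Aconitase (-0.07, adjusted p = 0.779) and the 2-oxoglutarate dehydrogenase E1 subunit (-0.37, adjusted p = 0.108) did not pass the test. Nor did the pyruvate dehydrogenase beta subunit (0.22, adjusted p = 0.0716), NAD-isocitrate dehydrogenase (0.17, adjusted p = 0.152) or the 2-oxoglutarate dehydrogenase E2 subunit (0.17, adjusted p = 0.178). With total counts as the only scaling, these last passed it, at 0.35, 0.31 and 0.30. The pyruvate dehydrogenase E2 subunit fell by 0.37, a value that became 0.35 without its top unigene. The citrate synthase call was lost without CK 1 d replicate A (0.29) or C (0.36) and with all 7 groups in 1 fit (0.29). That of the pyruvate dehydrogenase E2 subunit was lost without CO2 1 d replicate B (-0.36), CK 1 d replicate B (-0.32) or CK 1 d replicate C (-0.34). It was also lost with total counts as the only scaling (-0.23, adjusted p = 0.141). The 2-oxoglutarate dehydrogenase E1 subunit passed the test without CO2 1 d replicate C (-0.51, adjusted p = 0.0438). Alternative oxidase, which passes electrons to oxygen without pumping protons, had 485, 490 and 514 CPM in CO2 1 d, against 261, 240 and 250 CPM in CK 1 d (0.99 ± 0.09, adjusted p = 7.69e-05). Its unigenes were divided, with 8 higher and 6 lower of 22 tested. On the list of alternative oxidase and uncoupling proteins, 10 of 32 tested were higher and 10 lower. An AOX1a unigene (Cluster-16487.194525) stood out with 33.4, 38.1 and 39.7 FPKM in CO2 1 d, against 0.10, 0.28 and 0.13 FPKM in CK 1 d (7.65 ± 0.35, adjusted p = 8.18e-05).

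Carbonic anhydrase, which interconverts CO2 and bicarbonate, had 759, 550 and 623 CPM in CO2 1 d, against 214, 303 and 212 CPM in CK 1 d (1.41 ± 0.18, adjusted p = 0.000397). Phosphoenolpyruvate carboxykinase, which turns oxaloacetate into phosphoenolpyruvate, had 1360, 2030 and 2350 CPM in CO2 1 d, against 179, 291 and 222 CPM in CK 1 d (3.05 ± 0.26, adjusted p = 4.89e-05). Both were above air in all libraries. Of the carbonic anhydrase unigenes, 7 of 31 tested were higher and 3 lower. Scaled over all 21 libraries, carbonic anhydrase had 580 to 789 CPM in CO2 1 d and 230 to 330 CPM in CK 1 d. On that scale it had 228 to 434 CPM in CO2+1-MCP 1 d and 311 to 604 CPM in 0 d fruit, given without a test. NAD-malic enzyme rose by less, with 377, 366 and 390 CPM in CO2 1 d, against 180, 182 and 176 CPM in CK 1 d (1.07 ± 0.09, adjusted p = 4.56e-05). Phosphoenolpyruvate carboxylase, which fixes bicarbonate, did not pass the test (0.29, adjusted p = 0.176), nor did NADP-malic enzyme (0.23, adjusted p = 0.176). Without CO2 1 d replicate A both passed it, at 0.42 (adjusted p = 0.00131) and 0.31 (adjusted p = 0.00607).

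On the list of GABA, alanine and asparagine metabolism, 39 of 64 tested unigenes were higher and 6 lower. Asparagine synthase had 369, 439 and 446 CPM in CO2 1 d, against 31.9, 37.5 and 31.8 CPM in CK 1 d (3.63 ± 0.13, adjusted p = 1.12e-06). Alanine aminotransferase, which turns pyruvate into alanine, was at 1.37, glutamine synthetase at 1.21, GABA transaminase at 1.09 and succinic semialdehyde dehydrogenase at 0.52. Without its top unigene, GABA transaminase did not pass the test (0.69, adjusted p = 0.0856). Glutamate decarboxylase, which makes GABA, had 757, 755 and 765 CPM in CO2 1 d and 880, 830 and 719 CPM in CK 1 d (-0.09 ± 0.10, adjusted p = 0.464). Its groups overlapped, and the sum of its other unigenes was at 0.92 without the most abundant one.

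Genes of oxygen sensing and of nitric oxide turnover under low oxygen rose in 21 of 31 tested unigenes, with 2 lower and a median log2 fold change of 2.05. Plant cysteine oxidase, the enzyme that uses oxygen to mark ERFs for breakdown, summed to 1920, 1820 and 1660 CPM in CO2 1 d, against 146, 149 and 147 CPM in CK 1 d (3.61 ± 0.11, adjusted p = 4.84e-07). Its most abundant unigene (Cluster-16487.110785) had 2493, 2613 and 2210 FPKM in CO2 1 d, against 50.4, 44.3 and 40.8 FPKM in CK 1 d (5.74 ± 0.21, adjusted p = 5.4e-05). A non-symbiotic hemoglobin (Cluster-16487.170566), which scavenges nitric oxide, had 1871, 1510 and 1423 FPKM in CO2 1 d, against 14.1, 11.1 and 12.5 FPKM in CK 1 d (6.97 ± 0.27, adjusted p = 5.62e-05). These genes are standard members of the low-oxygen response in Arabidopsis. LOB domain-containing protein 41 (Cluster-16487.95890), another gene known to respond to low oxygen in Arabidopsis, had 1004, 1197 and 1018 FPKM in CO2 1 d, against 5.11, 11.1 and 8.65 FPKM in CK 1 d (7.01 ± 0.29, adjusted p = 6.62e-05). A universal stress protein (Cluster-16487.91972) had 3482, 2724 and 2631 FPKM in CO2 1 d, against 85.0, 126 and 113 FPKM in CK 1 d (4.75 ± 0.27, adjusted p = 0.000127).

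The persimmon ERFs that earlier work linked to deastringency did not move as a block. Most rose. DkERF10 (Cluster-16487.32289) had 1749, 2214 and 2162 FPKM in CO2 1 d, against 4.98, 9.50 and 9.26 FPKM in CK 1 d (7.96 ± 0.33, adjusted p = 6.62e-05). DkERF21 had 336, 289 and 265 FPKM in CO2 1 d, against 1.59, 3.03 and 3.72 FPKM in CK 1 d (6.70 ± 0.37, adjusted p = 0.000115). Of 9 unigenes hitting DkERF10, 6 were tested and 6 were higher, and of 8 hitting DkERF21, 6 were tested and 6 were higher. Members low in CK 1 d can pass the filter on low counts through CO2 1 d alone, so these shares are no separate result. DkERF9 had 15.3, 16.9 and 17.0 FPKM in CO2 1 d, against 0.48, 0.28 and 0 FPKM in CK 1 d (5.98 ± 0.86, adjusted p = 0.00283), a value that was 6.87 without CK 1 d replicate A and 5.31 without CK 1 d replicate C. DkERF18 had 20.03, 19.5 and 22.2 FPKM in CO2 1 d, against 2.26, 1.63 and 1.43 FPKM in CK 1 d (3.48 ± 0.29, adjusted p = 0.000426), and DkERF25 was at 2.72 ± 0.28. DkERF19 rose only slightly, with 14.0, 9.57 and 11.7 FPKM in CO2 1 d, against 3.54, 5.28 and 5.38 FPKM in CK 1 d (1.28 ± 0.29, adjusted p = 0.0136). The DkERF19 call was lost without CK 1 d replicate A (1.11, adjusted p = 0.0523) and with all 7 groups in 1 fit (1.35, adjusted p = 0.0733). DkERF23 fell, with 21.3, 20.2 and 24.2 FPKM in CO2 1 d, against 63.9, 73.1 and 79.6 FPKM in CK 1 d (-1.77 ± 0.14, adjusted p = 0.000344). DkERF24 was low in both groups and fell by 1.80 on the log2 scale (adjusted p = 0.0116). The unigene named for DkERF22 was too low to be tested, but of the 6 unigenes hitting that gene 4 were tested, and 3 of these were higher and 0 lower. The same limit of the filter holds for that share.

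DkMYB10, a persimmon MYB factor of the same literature, had 74.9, 57.5 and 80.5 FPKM in CO2 1 d, against 0.37, 0.25 and 0.05 FPKM in CK 1 d (8.27 ± 0.50, adjusted p = 0.000143). DkWRKY1 had 40, 44.2 and 58.4 FPKM in CO2 1 d, against 5.90, 9.03 and 15.0 FPKM in CK 1 d (2.20 ± 0.34, adjusted p = 0.00349). Neither pair of groups overlapped. The unigene hitting DkMYB6 was too low to be tested, and no unigene was named as DkWRKY7. Levels in 0 d fruit lay near those of CK 1 d: DkERF10 had 2.93, 6.82 and 4.34 FPKM and DkADH1 21.4, 28.6 and 14.5 FPKM at 0 d. In CO2+1-MCP 1 d fruit, which shared the CO2 atmosphere, DkERF10 had 1609, 1353 and 1979 FPKM, DkADH1 2493, 2576 and 1542 FPKM, and DkMYB10 7.51, 7.70 and 41.8 FPKM. These last 2 groups are given side by side only and were not tested.

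**Figure D3:**
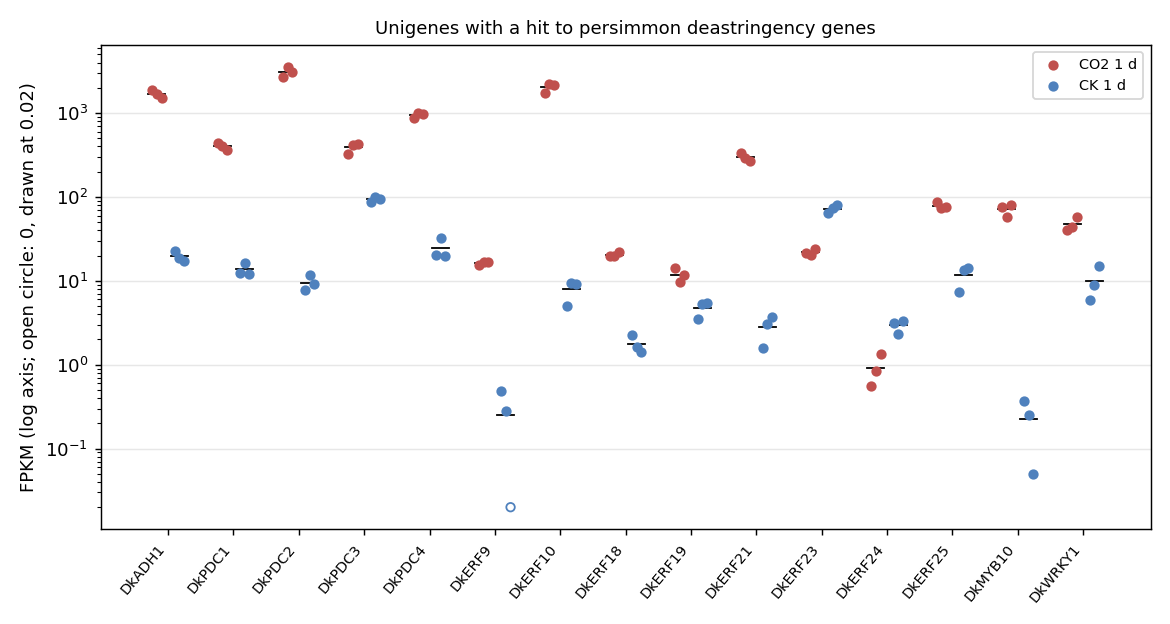
FPKM (log axis) of the unigenes hitting persimmon deastringency genes in each library, with CO2 1 d in red left of CK 1 d in blue and the black bar at the group mean; the open circle is a library at 0. DkERF23 and DkERF24 stand lower in CO2 1 d, all other genes plotted higher, and DkERF10 spans 1749 to 2214 FPKM in CO2 1 d and 4.98 to 9.50 FPKM in CK 1 d.

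Other transcription factor families were higher more often than lower. WRKY factors, known from defence and stress, had 63 of 109 tested unigenes higher and 12 lower, AP2/ERF factors 70 of 156 higher and 31 lower, NAC factors 52 of 134 higher and 26 lower, and MYB factors 47 of 142 higher and 14 lower. The shares lower, of 9.9 to 19.9%, lay near or under the 19.6% of all tested unigenes. A persimmon NAC factor (Cluster-16487.145345) had 1436, 1649 and 1689 FPKM in CO2 1 d, against 26.9, 26.0 and 24.8 FPKM in CK 1 d (5.89 ± 0.16, adjusted p = 4.24e-05). A unigene named WRKY40 (Cluster-16487.63718) had 238, 248 and 245 FPKM in CO2 1 d, against 4.12, 6.09 and 6.53 FPKM in CK 1 d (5.40 ± 0.22, adjusted p = 6.51e-05). Within the LOB domain family, 14 of 33 tested unigenes rose and 5 fell. While LOB41 rose, another LOB unigene (Cluster-16487.99472) fell to 1.56, 1.89 and 1.17 FPKM in CO2 1 d, against 86.0, 66.6 and 70.3 FPKM in CK 1 d (-5.65 ± 0.27, adjusted p = 8.47e-05). In bZIP factors, 43 of 157 tested unigenes were higher and 29 lower, shares near those of all unigenes.

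Small heat shock proteins, which hold unfolding proteins in solution, had 75 of 102 tested unigenes higher and 4 lower, with a median log2 fold change of 3.59. Summed, they stood at 6410, 4600 and 4650 CPM in CO2 1 d, against 578, 1030 and 777 CPM in CK 1 d (2.72 ± 0.24, adjusted p = 6.11e-05). None of the 65 tested unigenes of HSP70, HSP90 and HSP100 fell and 28 rose, among them an HSP83-like unigene (Cluster-16487.132483) with 246, 334 and 394 FPKM in CO2 1 d, against 5.10, 9.21 and 8.62 FPKM in CK 1 d (5.34 ± 0.28, adjusted p = 0.000106). Of the heat stress factors that drive such genes, 20 of 63 tested unigenes were higher and 7 lower. Glutathione S-transferases, which conjugate toxic compounds to glutathione, had 86 of 147 tested unigenes higher and 8 lower, and summed to 4220, 3040 and 2950 CPM in CO2 1 d, against 715, 745 and 651 CPM in CK 1 d (2.27 ± 0.16, adjusted p = 2.4e-05). Enzymes that remove reactive oxygen moved less. Copper/zinc superoxide dismutase was at 0.98, manganese or iron superoxide dismutase at 0.78, ascorbate peroxidase at 0.70 and glutathione reductase at 0.33. Catalase (0.28, adjusted p = 0.0692) and monodehydroascorbate reductase (0.23, adjusted p = 0.138) did not pass the test. With total counts as the only scaling, these last passed it, at 0.41 and 0.36. Catalase passed it without CO2 1 d replicate C (0.34, adjusted p = 0.0472), and the glutathione reductase call was lost without CO2 1 d replicate B (0.28), CK 1 d replicate A (0.30) or CK 1 d replicate C (0.30). On the metallothionein list, 12 of 17 tested unigenes rose and 0 fell.

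By unigene, ethylene biosynthesis was higher more often than lower, and ethylene perception lower more often than higher. Of 46 tested unigenes of ethylene biosynthesis, 25 rose and 6 fell, but with counts summed over equal NR descriptions the tally turned, with 6 of 26 higher and 11 lower. Of 40 tested unigenes of ethylene perception and signalling, 1 rose and 24 fell, with a median log2 fold change of -1.45. The median length of these 40 was 2918 bases, and 13.2% of all tested unigenes of 2725 to 3553 bases were higher and 24.4% lower. ACC oxidase, which makes ethylene from ACC in a reaction that needs oxygen, summed to 954, 852 and 748 CPM in CO2 1 d, against 178, 162 and 164 CPM in CK 1 d (2.34 ± 0.12, adjusted p = 7.17e-06). The unigene of DK-ACO1 (Cluster-16487.134131) had 1988, 1775 and 1606 FPKM in CO2 1 d, against 230, 170 and 158 FPKM in CK 1 d (3.28 ± 0.23, adjusted p = 0.000224). The ACC synthase unigene of DK-ACS3 (Cluster-16487.155884), an enzyme that makes ACC, fell to 0.42, 0.44 and 0.44 FPKM in CO2 1 d, against 8.08, 9.74 and 11.1 FPKM in CK 1 d (-4.50 ± 0.22, adjusted p = 9.16e-05).

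On the side of perception, the ethylene receptors summed to 143, 176 and 168 CPM in CO2 1 d, against 336, 353 and 330 CPM in CK 1 d (-1.06 ± 0.11, adjusted p = 0.000131). CTR1, the kinase that holds the pathway off, had 31.4, 47.5 and 58.0 CPM in CO2 1 d, against 123, 120 and 132 CPM in CK 1 d (-1.46 ± 0.21, adjusted p = 0.00068). EIN2, which carries the signal onward, had 8.89, 16.6 and 17.5 CPM in CO2 1 d, against 121, 125 and 119 CPM in CK 1 d (-3.08 ± 0.25, adjusted p = 3.99e-05). All of these were below air in every library. The factor EIN3 did not pass the test (0.23, adjusted p = 0.0992). EBF, the F-box protein that removes EIN3, was divided between unigenes: Cluster-16487.123321 rose by 2.05 ± 0.16 and Cluster-16487.113527 was at -0.96 ± 0.15, and their sum was 0.51, or -0.99 without the more abundant one. The call on the sum was lost without CO2 1 d replicate B (0.42), CK 1 d replicate A (0.51) or CK 1 d replicate C (0.47).

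**Figure D4:**
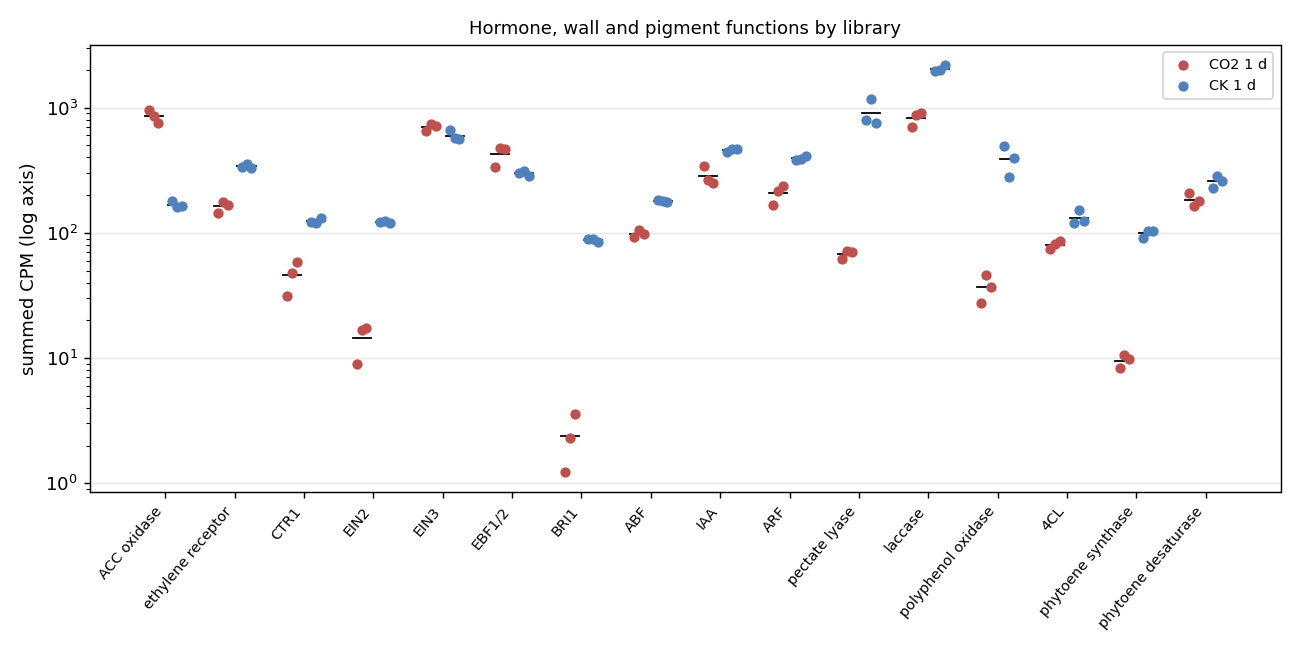
Summed CPM (log axis) of hormone, wall and pigment functions in each library, with CO2 1 d in red left of CK 1 d in blue and the black bar at the group mean. ACC oxidase stands higher in CO2 1 d, EIN3 overlaps between the groups, and BRI1, EIN2, pectate lyase, polyphenol oxidase and phytoene synthase stand lower in every CO2 1 d library, with pectate lyase at 61.9 to 72.2 CPM in CO2 1 d and 756 to 1170 CPM in CK 1 d.

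The other hormone pathways differed in direction. Brassinosteroid receptor BRI1 fell most among the KO sums with at least 50 CPM, to 1.24, 2.31 and 3.55 CPM in CO2 1 d, against 89.8, 88.7 and 85.0 CPM in CK 1 d (-5.22 ± 0.30, adjusted p = 1.02e-05). In auxin response, 57 of 149 tested unigenes were lower and 21 higher, with summed Aux/IAA repressors at -0.69 and auxin response factors at -0.92, whereas the growth-related SAUR genes were at 1.04. In abscisic acid, 30 of 70 were lower and 8 higher. The ABF factors that act in abscisic acid signalling were at -0.87, and the PYL receptors (-0.37, adjusted p = 0.0528) and PP2C phosphatases (0.10, adjusted p = 0.423) did not pass the test. The PYL receptors passed it without CO2 1 d replicate A (-0.58, adjusted p = 0.000495) and without their top unigene (-1.02), the PP2C phosphatases passed it without theirs (0.75), and SAUR genes did not without theirs (0.34, adjusted p = 0.0532). On the jasmonate list, 23 of 46 tested unigenes were higher and 5 lower. Most of the rises came from 12-oxophytodienoate reductase (OPR), with 19 of 29 tested unigenes higher and 3 lower. Lipoxygenase was at 1.71, but at 0.12 without its top unigene (adjusted p = 0.558). Allene oxide cyclase did not pass the test (-0.44, adjusted p = 0.084), though it did in 2 of 14 alternatives. An OPR11 unigene (Cluster-16487.103912), of the OPR family, had 211, 250 and 231 FPKM in CO2 1 d, against 8.49, 8.39 and 7.91 FPKM in CK 1 d (4.75 ± 0.14, adjusted p = 4.78e-05).

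Several lists of genes that loosen or dismantle the cell wall were lower more often than higher. Expansins, which loosen the wall, had 18 of 30 tested unigenes lower and 3 higher. Pectate and rhamnogalacturonan lyases had 11 of 31 lower and 4 higher, and beta-galactosidases 16 of 43 lower and 3 higher. Polygalacturonases had 15 of 52 lower and 10 higher, with a median log2 fold change of -0.84, but 5 lower and 8 higher beyond 5-fold. Other lists were more even by unigene: pectin methylesterases and their inhibitors had 21 of 94 lower and 21 higher, and GH9 endoglucanases 7 of 21 lower and 6 higher. With counts summed over equal NR descriptions, pectin methylesterases and their inhibitors had 17 of 39 lower and 11 higher. Pectate lyase, which cuts pectin, summed to 61.9, 72.2 and 70.0 CPM in CO2 1 d, against 799, 1170 and 756 CPM in CK 1 d (-3.74 ± 0.19, adjusted p = 7.17e-06). Within the GH9 list, an endoglucanase 6-like unigene (Cluster-16487.110691) had 16.0, 19.7 and 21.9 FPKM in CO2 1 d, against 330, 919 and 505 FPKM in CK 1 d (-4.99 ± 0.42, adjusted p = 0.000421). Its CK 1 d libraries differed widely among themselves, yet none came near the CO2 1 d values. Cellulose synthases, which build the wall, also fell in 39 of 87 tested unigenes and rose in 11. Xyloglucan endotransglucosylase/hydrolases (XTH), which cut and rejoin xyloglucan, had 22 of 51 higher and 12 lower. Within them, Cluster-16487.95220 had 497, 478 and 464 FPKM in CO2 1 d, against 41.5, 49.3 and 50.7 FPKM in CK 1 d (3.30 ± 0.16, adjusted p = 8.94e-05). The persimmon XTH10 unigene (Cluster-16487.115103) had 14.9, 21.6 and 16.4 FPKM in CO2 1 d, against 95.2, 142 and 184 FPKM in CK 1 d (-3.04 ± 0.27, adjusted p = 0.000506).

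In phenolic metabolism the steps differed. Cinnamate 4-hydroxylase was at 1.81 ± 0.19 and caffeoyl-CoA O-methyltransferase at 1.65 ± 0.23, while 4-coumarate:CoA ligase was at -0.71 ± 0.13. Laccase, which couples phenols in the wall, had 696, 874 and 899 CPM in CO2 1 d, against 1950, 2010 and 2190 CPM in CK 1 d (-1.32 ± 0.13, adjusted p = 9.22e-05). Polyphenol oxidase, which browns damaged flesh, had 27.4, 46.2 and 36.7 CPM in CO2 1 d, against 494, 280 and 393 CPM in CK 1 d (-3.40 ± 0.27, adjusted p = 3.89e-05). Chalcone synthase (-0.30, adjusted p = 0.0577) and flavanone 3-hydroxylase (0.04, adjusted p = 0.83), early steps towards tannins, did not pass the test, although chalcone synthase did without CO2 1 d replicate A (-0.33, adjusted p = 0.0196) or CK 1 d replicate A (-0.39, adjusted p = 0.0389). In carotenoid biosynthesis, 23 of 59 tested unigenes fell and 6 rose. Phytoene synthase, its first step, had 8.27, 10.6 and 9.77 CPM in CO2 1 d, against 91.5, 103 and 103 CPM in CK 1 d (-3.37 ± 0.14, adjusted p = 2.31e-06). The desaturases followed at smaller size (phytoene desaturase -0.49, zeta-carotene desaturase -0.63), carotenoid isomerase was at -1.35, and beta-carotene hydroxylase, a late step, was at 0.74. Without CO2 1 d replicate B the phytoene desaturase call was lost (-0.41, adjusted p = 0.0579), and with all 7 groups in 1 fit that of beta-carotene hydroxylase (0.68, adjusted p = 0.0706). Cytochrome P450 enzymes, many of them of secondary metabolism, fell in 92 of 221 tested unigenes and rose in 42.

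Defence proteins made up a large part of the air libraries, mostly through 1 chitinase unigene, Cluster-16487.111793. That unigene alone took 18.92 to 21.38% of all counts in CK 1 d and 3.3 to 3.48% in CO2 1 d. Chitinases, glucanases, thaumatins and PR-10 proteins summed to 45049.8, 43337.8 and 43931.8 CPM in CO2 1 d, against 259836.4, 236492.7 and 235785.7 CPM in CK 1 d. By unigene the list was more even, with 46 of 144 tested lower and 26 higher, and with counts summed over equal NR descriptions 13 of 52 were lower and 16 higher. The endochitinase 2 unigene Cluster-16487.111793 had 53997, 50898 and 51015 FPKM in CO2 1 d, against 332886, 304995 and 292541 FPKM in CK 1 d (-2.62 ± 0.34, adjusted p = 0.00188). It was high in 0 d fruit too, with 282661, 281503 and 251637 FPKM. A thaumatin-like P21 unigene (Cluster-16487.110893) of 206 bases had 38499, 39378 and 36785 FPKM in CO2 1 d, against 121005, 113325 and 91845 FPKM in CK 1 d (-1.69 ± 0.21, adjusted p = 0.00164). FPKM of so short a unigene is raised by its short effective length. Beyond this list, a group of short beta-D-xylosidase unigenes was among the deepest falls, and Cluster-16487.108823 had 4.49, 8.24 and 5.23 FPKM in CO2 1 d, against 347, 218 and 328 FPKM in CK 1 d (-5.60 ± 0.34, adjusted p = 0.000143).

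Proteasome subunits, which degrade tagged proteins, had 28 of 45 tested unigenes higher and 0 lower. Cytosolic ribosomal proteins had 155 of 381 higher and 24 lower, and core histones 36 of 71 higher and 3 lower. The median length of the tested unigenes was 855 bases for ribosomal proteins and 779 bases for histones, and 27.4% of all tested unigenes of 760 to 998 bases were higher. Autophagy unigenes, whose products digest cell contents in the vacuole, had 26 of 92 lower (28.3%) and 14 higher (15.2%). Their median length was 1834 bases. These shares lay near those of all tested unigenes of 1815 to 2201 bases, of which 23.2% were lower and 17.9% higher. Cyclins and cyclin-dependent kinases had 5 of 48 higher and 6 lower.

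Outside the functions listed, several KO sums stood far from air. Glycerophosphodiester phosphodiesterase, which breaks down deacylated phospholipids, had 2540, 2370 and 2430 CPM in CO2 1 d, against 4.51, 4.79 and 4.15 CPM in CK 1 d (9.09 ± 0.14, adjusted p = 2.22e-08). The phosphatase named PHOSPHO2 had 750, 636 and 713 CPM in CO2 1 d, against 1.82, 1.62 and 2.01 CPM in CK 1 d (8.58 ± 0.16, adjusted p = 4.92e-08), or 4.59 without its top unigene. An acid phosphatase (ACP5), of enzymes that release phosphate from organic esters, had 631, 576 and 632 CPM in CO2 1 d, against 19, 25.5 and 20.4 CPM in CK 1 d (4.82 ± 0.15, adjusted p = 5.88e-07). None of the 3 functions overlapped between the groups. Nitrate reductase, which turns nitrate into nitrite, had 307, 451 and 392 CPM in CO2 1 d, against 6.68, 13.2 and 9.71 CPM in CK 1 d (5.28 ± 0.28, adjusted p = 7.62e-06). Phosphoserine aminotransferase of serine synthesis was at 5.88 ± 0.31, aspartate kinase of lysine and threonine synthesis at 4.86 ± 0.14, and a flavonoid rhamnosyltransferase at 7.05 ± 0.24. Monothiol glutaredoxin was at 4.94 ± 0.20 through 1 unigene, and at -0.60 without it. The large subunit of Rubisco, encoded in the chloroplast, had 73.2, 40.2 and 58.7 CPM in CO2 1 d, against 1.99, 2.48 and 1.63 CPM in CK 1 d (4.82 ± 0.28, adjusted p = 1.03e-05). Scaled over all 21 libraries, it had 42.4 to 76.1 CPM in CO2 1 d and 2.27 to 8.2 CPM in CO2+1-MCP 1 d, given without a test. A photosystem II D1 unigene (psbA, Cluster-16487.193722), also of the chloroplast, had 30.8, 15.4 and 24.97 FPKM in CO2 1 d, against 0.23, 0.57 and 0.05 FPKM in CK 1 d (6.38 ± 0.72, adjusted p = 0.00117), or 7.39 without CK 1 d replicate B. It had 1.17, 0.84 and 3.84 FPKM in CO2+1-MCP 1 d fruit, which is given without a test.

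At the low end, an ABCC1-type transporter, of pumps that load conjugates into the vacuole, had 7.37, 17.1 and 17.6 CPM in CO2 1 d, against 294, 246 and 240 CPM in CK 1 d (-4.21 ± 0.33, adjusted p = 3.46e-05). Without its most abundant unigene this fall did not pass the test (-1.13, adjusted p = 0.105). The oligosaccharyltransferase subunit STT3, which attaches sugars to new proteins, had 9.90, 15.6 and 18.1 CPM in CO2 1 d, against 141, 156 and 141 CPM in CK 1 d (-3.33 ± 0.22, adjusted p = 1.68e-05). ATL-type ubiquitin ligases were at -3.59 ± 0.28, a zinc transporter at -3.16 ± 0.16, and the blue light receptor cryptochrome 2 at -3.07 ± 0.24. Among single DEGs with a mean of at least 50 FPKM in a group and no overlap, the 10 highest fold changes were all of unigenes with no count in CK 1 d. They included a glycerophosphodiester phosphodiesterase unigene (Cluster-16487.129199) at 265, 273 and 317 FPKM in CO2 1 d. On library totals without TMM scaling, this was at least 8380-fold higher than the limit of 3 counts over the CK 1 d group. An SRO2 unigene (Cluster-16487.28713), of a family of inactive poly(ADP-ribose) polymerases, was at least 2930-fold higher by the same limit.

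The acute effect was set against that at 4 d, after the CO2 fruit had been in air, by testing the difference of the 2 effects. These effects shared no library. Of 78088 unigenes, the effect of CO2 was more positive at 1 d than at 4 d in 6209 (7.95%) and more negative in 8006 (10.3%). Of 3317 KO sums it was more positive at 1 d in 648 (19.5%) and more negative in 824 (24.8%). Of the 1103 KO sums higher at 1 d, the effect was more positive at 1 d in 540 and more negative in 30, and of the 975 lower at 1 d it was more negative at 1 d in 615 and more positive in 1. The same 1 d libraries that chose these KO sums also entered the difference, so these counts are descriptive.

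For fermentation, the ratio of CO2 to CK was larger at 1 d. The PDC log2 ratio was 5.46 at 1 d and 2.22 at 4 d (difference 3.24 ± 0.49, adjusted p = 0.000255), and the ADH log2 ratio was 4.55 at 1 d and 0.78 at 4 d (difference 3.78 ± 0.40, adjusted p = 2.22e-05). Nitrate reductase was at 5.22 at 1 d and -0.02 at 4 d (difference 5.22 ± 0.64, adjusted p = 6.2e-05). Other functions had opposite signs at the 2 times. The ethylene receptors had a log2 ratio of -1.12 at 1 d and 2.58 at 4 d (difference -3.70 ± 0.32, adjusted p = 6.35e-06). Phytoene synthase had -3.43 at 1 d and 1.82 at 4 d (difference -5.25 ± 0.47, adjusted p = 7.59e-06), and pectate lyase -3.79 at 1 d and 1.53 at 4 d (difference -5.32 ± 0.59, adjusted p = 3.28e-05). ACC oxidase was high at both times, with 2.28 at 1 d and 2.63 at 4 d, and the difference did not pass the test (-0.34 ± 0.49, adjusted p = 0.602).

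**Figure D5:**
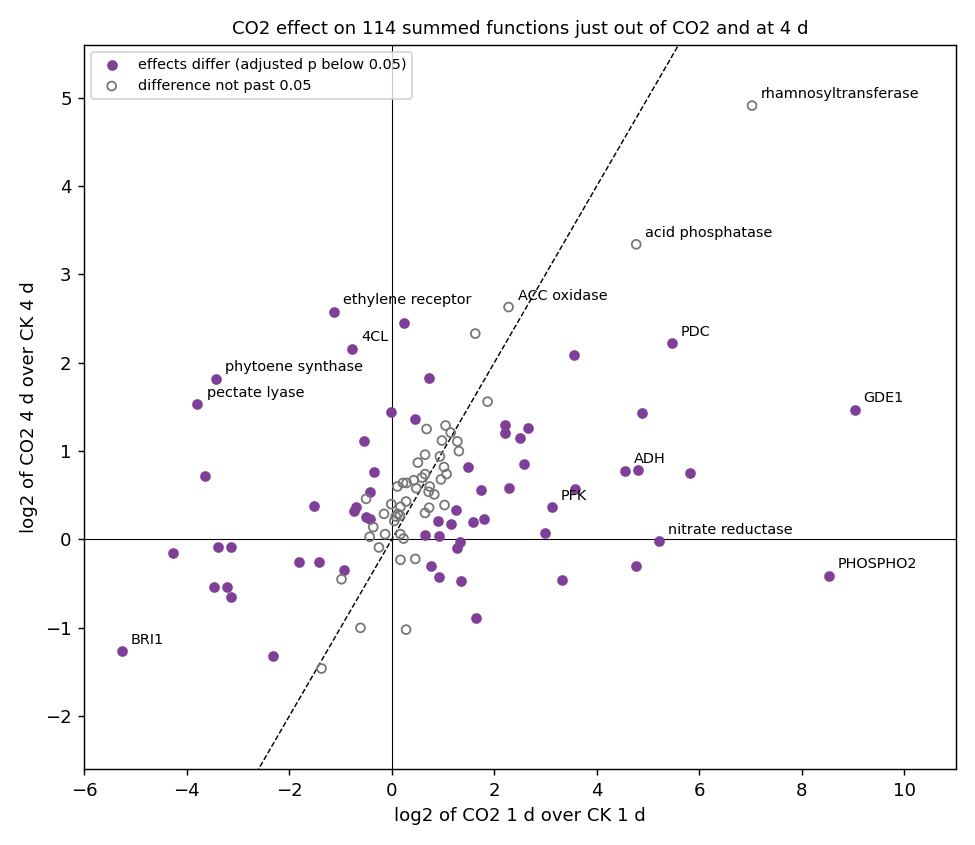
Log2 ratio of CO2 to CK at 4 d (vertical axis) against that at 1 d (horizontal axis) for 114 named KO sums, filled where the difference of the effects passed an adjusted p below 0.05; the dashed line marks equal effects. PDC lies at 5.46 at 1 d and 2.22 at 4 d, below the line, and phytoene synthase, pectate lyase and the ethylene receptors lie in the upper left, lower at 1 d and higher at 4 d.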

How the data were processed

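Total RNA of persimmon flesh was sequenced as paired ends on an Illumina HiSeq 4000. The authors assembled the reads with Trinity and annotated the unigenes against NR, NT, Swiss-Prot, Pfam, KOG/COG, KEGG and GO. The deposited expected counts per unigene came from RSEM, as named in the submitters' processing notes (version not given in the sources used here), and the deposited FPKM values were also made by the authors and are not normalised across libraries beyond the library total. Libraries were grouped by GEO's labels, and the study describes its replicates as biological.

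Expected counts were rounded to whole numbers and tested with edgeR 4.0.16 in R 4.3.3 (filterByExpr, TMM, quasi-likelihood F test, Benjamini-Hochberg adjustment over all features tested, threshold 0.05). This replaced the study's DESeq, and its threshold of a fold change above 5 was kept for DEGs. The fit held only the 6 libraries of the comparison. KO sums were tested in the same way with library sizes over all unigenes. The difference of the CO2 effects at 1 d and 4 d was an interaction contrast over 12 libraries. Scripts were tested on simulated data with known changes. Alternatives were DESeq2 1.42.0, other scaling, no filter, all 7 groups in 1 fit, the replicate letter as a block, each library left out, a test against a 5-fold change, counts summed over equal NR descriptions, non-plant or cork oak hits left out, and KO sums without their most abundant unigene. The letters did not pair the samples (correlations of deviations from the group means of 0.006, -0.019 and 0.052).

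Unigenes were put into 53 functional lists and 5 marker lists by KO number, Pfam domain or NR description. The comparison and the lists were chosen with earlier results of these data known. The named unigenes were the 10 highest and 10 lowest fold changes among DEGs with a mean of at least 50 FPKM in a group and no overlap, up to 3 members of each list in each direction by mean FPKM, the unigenes hitting persimmon genes linked to deastringency, and the 5 with the highest FPKM in each group. The named KO sums were those of the listed functions and the 10 highest and 10 lowest with at least 50 CPM. Lists are described by counts, with no set test. No genome was used, so no positions or sequences are given. Intervals and limits from counts cover counting error only.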

Additional observations from a re-analysis of the deposited data

Results flagged for a closer look

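For 63 of the 114 named KO sums the effect of CO2 over CK at 1 d differed from that at 4 d by edgeR's test of the difference (adjusted p below 0.05). Over all KO sums tested, 19.5% were more positive and 24.8% more negative at 1 d, but the named KO sums include the 10 highest and 10 lowest by the 1 d fold change, which enters the difference, so their share is not set against these. Each value is the log2 effect at 1 d minus that at 4 d. From sugar to ethanol the effect was more positive at 1 d for PDC (3.24), ADH (3.78), hexokinase (0.97), ATP-dependent (2.74) and pyrophosphate-dependent (1.57) phosphofructokinase, aldolase (1.01), glyceraldehyde 3-phosphate dehydrogenase (1.74), phosphoglycerate kinase (1.36), phosphoglycerate mutase (1.70), enolase (0.68) and pyruvate kinase (0.93), and more negative for invertase (-1.54). In starch and organic acid metabolism the difference was 3.78 for granule-bound starch synthase, 0.70 for ADP-glucose pyrophosphorylase, -0.99 for alpha-amylase, -1.11 for beta-amylase, -0.96 for the pyruvate dehydrogenase E2 subunit, 1.35 for alternative oxidase, 1.82 for carbonic anhydrase and 2.92 for phosphoenolpyruvate carboxykinase.

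In nitrogen and phosphate metabolism it was 3.0 for asparagine synthase, 5.07 for phosphoserine aminotransferase, 4.02 for aspartate kinase, 5.22 for nitrate reductase, 7.57 for glycerophosphodiester phosphodiesterase and 8.97 for PHOSPHO2, and 5.03 for the Rubisco large subunit. In the stress functions it was 1.47 for plant cysteine oxidase, 1.40 for small heat shock proteins, 1.35 for ClpB, 1.06 for heat stress factors, 0.89 for copper/zinc superoxide dismutase, 0.59 for ascorbate peroxidase, 0.92 for glutathione S-transferases and 3.45 for monothiol glutaredoxin.

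Among the hormone functions that passed the test, the difference was negative for most, with -3.70 for ethylene receptors, -1.90 for CTR1, -2.50 for EIN2, -0.91 for EBF, -4.04 for BRI1, -1.06 for Aux/IAA, -0.66 for PYL receptors and -0.58 for ABF, while the jasmonate enzymes lipoxygenase (2.54) and 12-oxophytodienoate reductase (1.37) differed in the positive direction. In the wall and in phenolics the difference was -5.32 for pectate lyase, -0.75 for beta-galactosidase, -2.94 for polyphenol oxidase, -2.92 for 4-coumarate:CoA ligase, -1.10 for cinnamyl alcohol dehydrogenase, -2.21 for cinnamoyl-CoA reductase, -1.45 for flavanone 3-hydroxylase, 1.19 for cinnamate 4-hydroxylase and 1.39 for caffeoyl-CoA O-methyltransferase. In carotenoids it was -5.25 for phytoene synthase, -1.66 for phytoene desaturase, -1.06 for zeta-carotene desaturase and -1.16 for carotenoid isomerase. The remaining differences were -4.13 for the ABCC1-type transporter, -4.35 for ATL ubiquitin ligases, -3.30 for STT3, -2.67 for a zinc transporter and -3.05 for cryptochrome 2.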

How the results depend on the processing

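With the replicate letter as a block, 8170 unigenes were called higher and 6705 lower, 3325 of those lower by more than 5-fold; the letters did not pair the samples. Counts summed over equal NR descriptions, which leave fewer features to test, gave 6040 higher and 5261 lower, of which 2334 and 1572 were beyond 5-fold. A test against a 5-fold change called 3661 higher and 2074 lower, a fold change above 2 gave 10656 and 10602, and no filter on low counts gave 9875 beyond 5-fold higher. DESeq2 called 13800 higher and 13092 lower. Leaving out 1 library at a time gave 10482 to 12595 unigenes higher and 8351 to 12060 lower, 6351 to 7403 and 4757 to 6822 beyond 5-fold, 915 to 1150 KO sums higher and 819 to 1154 lower, 96 to 122 and 79 to 90 beyond 5-fold, 4563 to 6735 unigenes and 565 to 758 KO sums with a more positive effect at 1 d, and 5647 to 8584 unigenes and 673 to 890 KO sums with a more negative one. With total counts as the only scaling, the median of the KO sums shifted by 0.133 on the log2 scale and 1284 were called higher and 791 lower. Without the most abundant unigene of each KO sum, the direction turned for monothiol glutaredoxin (-0.60), ADP-glucose pyrophosphorylase (-0.44), the pyruvate dehydrogenase E2 subunit (0.35), EBF (-0.99) and the plasma membrane proton ATPase (-0.73), and glutamate decarboxylase, not called before, was at 0.92. Under the alternatives named, the values of named unigenes kept their direction and side of the threshold in 4565 of the fits and lost the threshold in 809. Those of named KO sums kept both in 1640, gained the threshold in 38 and lost it in 26. Counts of list members stayed within 1.5 times in 487 and moved further in 93, of which 72 were with counts summed over NR descriptions. The alternatives of total counts only, and of all cork oak hits left out, were chosen after seeing the data. Low counts limit what was tested: the unigenes named for DkPDC5, DkERF22 and DkMYB6 did not pass the filter.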

Other observations

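Aquaporins, which pass water across membranes, had 14 of 51 tested unigenes higher and 8 lower, beside 20.9% higher and 19.6% lower over all tested unigenes. A tonoplast aquaporin unigene (Cluster-16487.109477) had 2740, 2668 and 2927 FPKM in CO2 1 d, against 1154, 1454 and 1047 FPKM in CK 1 d (log2 fold change 1.14 ± 0.20, edgeR adjusted p = 0.00503). A plasma membrane PIP2-7 unigene (Cluster-16487.114293) had 3.64, 2.16 and 0.91 FPKM in CO2 1 d, against 20.2, 14.9 and 18.99 FPKM in CK 1 d (-2.98 ± 0.56, adjusted p = 0.00664, or -3.61 without CO2 1 d replicate A). Proton pumps had 33 of 123 higher and 37 lower. Among those that acidify the vacuole, a V-type ATPase subunit d2 unigene (Cluster-16487.116400) had 151, 163 and 155 FPKM in CO2 1 d, against 59.5, 63.1 and 61.6 FPKM in CK 1 d (1.30 ± 0.12, adjusted p = 0.000629). A vacuolar proton pyrophosphatase unigene (Cluster-16487.110337), which does the same work on pyrophosphate, had 42.9, 42.4 and 51.9 FPKM in CO2 1 d, against 157, 146 and 160 FPKM in CK 1 d (-1.81 ± 0.13, adjusted p = 0.000245). SWEET sugar transporters had 6 of 20 higher and 5 lower.

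Transcripts of the photosynthetic apparatus moved in both directions, and whether they differed by the genome that encodes them was not tested. The chloroplast-encoded photosystem II 47 kDa protein (Cluster-16487.24207) had 4.27, 4.67 and 5.35 FPKM in CO2 1 d, against 0.37, 0.53 and 0.20 FPKM in CK 1 d (3.63 ± 0.40, adjusted p = 0.00107). The nuclear persimmon photosystem II BY gene (Cluster-16487.72981) had 13.5, 11.5 and 13.4 FPKM in CO2 1 d, against 42.0, 33.8 and 36.3 FPKM in CK 1 d (-1.59 ± 0.18, adjusted p = 0.0012). On the whole list, 7 of 28 tested unigenes were higher and 5 lower. Both shares lay near the 20.9% higher and 19.6% lower of all tested unigenes. Unigenes of fungal type were also present outside the comparison, at 386.1, 897.4 and 1267.8 CPM in CO2+1-MCP 1 d, 155.5, 377.9 and 193.3 CPM in CO2 4 d, 1245.5, 1245.5 and 1477.6 CPM in CK 4 d, and 132.7, 145.9 and 175.1 CPM in 0 d fruit.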
